A study of Mus musculus with 14 samples.

Results

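The genes described here encode 82 enzymes and subunits that remodel chromatin or modify histones and DNA: histone deacetylases, lysine demethylases and methyltransferases, SWI/SNF and ISWI remodellers, chromodomain helicases, and the enzymes that add or remove DNA methylation. They were chosen by gene symbol, with earlier results of these data known, out of 18193 symbols with a probe set of their own. They cover the Hdac, Kdm, Kmt, Setd, Smarca to Smarce, Chd, Dnmt and Tet families. Ezh1, Ezh2, Eed, Suz12, Ehmt1, Ehmt2, Crebbp and Ep300 were added. Each symbol is represented by 1 probe set, its brightest on average across the 14 arrays. Of the 82 members, 78 were bright enough to be tested (95.1%, against 56.6% of all symbols), and 77 lay above the dim level of 4 on the log2 scale on all 14 arrays. The 4 set aside, Dnmt3l, Hdac7, Hdac10 and Kdm4d, lay below it on every array, so for them the arrays give only a bound.

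Chromatin packs DNA around histones, and the position of nucleosomes and the chemical marks on histone tails decide which genes can be read. Remodelling ATPases slide or evict nucleosomes, acetyltransferases and deacetylases add and remove the acetyl groups linked to open chromatin, and methyltransferases and demethylases write and erase marks that either permit or repress transcription. In the developing cortex the Polycomb complex is known to time the switch between neuron and glia production. There, too, the SWI/SNF complex is known to exchange subunits as progenitors leave the cell cycle and become neurons.

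Transcripts were measured in neocortical cells of CD1 mouse embryos that had received a plasmid at E14.5 through in utero electroporation: DNA goes into the brain ventricle and electric pulses carry it into the cells that line it. The vector was labelled either Fezf2GFP, which carries the transcription factor Fezf2 of deep-layer projection neurons, or CtrlGFP. Arrays were made 48 h after electroporation, 4 with Fezf2GFP and 4 with CtrlGFP, and 24 h after it, 3 with Fezf2GFP and 3 with CtrlGFP, which gives 14 arrays in 4 groups. All groups share the strain, the sorting of GFP-positive cells by FACS, so that the vector is present in every sample, and 2 rounds of in vitro transcription of the RNA before it was hybridized to Affymetrix arrays. The labels do not say whether replicate arrays stem from different litters, and p-values therefore cover only the spread among these samples, some of it perhaps technical.

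Values are the authors' log2 expression values, and a fold change is the difference between group means on that scale, with its standard error (SE) from limma. "Passed" means a limma p, adjusted by Benjamini-Hochberg over the 10295 genes tested, under 0.05. In sorted bulk samples fewer cells of a type and less RNA per cell cannot be told apart. Fezf2 itself, read by 1 probe set, lay at 9.33 ± 0.70 in Fezf2GFP arrays and 10.15 ± 0.48 in CtrlGFP arrays at 48 h (SD, n = 4 each), and at 9.44 ± 0.11 against 11.3 ± 0.42 at 24 h (SD, n = 3 each; limma adjusted p = 0.0324 at 24 h). That direction goes against the vector labels. The sources used here do not say whether the probe set reads the vector's transcript. Every direction between vectors given here is therefore one between arrays so labelled. Replicate 2 of CtrlGFP at 48 h and replicate 1 of CtrlGFP at 24 h stood apart from the other arrays, with the highest medians and with deviations from their group means that correlated at 0.593 across genes. None of 16 radial glia markers and none of 13 intermediate progenitor markers was below the dim level on all arrays, whereas 9 of 10 microglia and 6 of 10 endothelial and mural markers were. So were 2 of 5 red blood cell markers and 1 of 10 GABAergic markers. The summed linear level of the red blood cell markers was 83 to 14177 in CtrlGFP arrays and 71 to 1064 in Fezf2GFP arrays at 24 h. At 48 h it was 57 to 87 and 68 to 143. The part of such cells in the members' differences was not tested.

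The start regions of 66 of the 82 members were found in RefSeq (assembly GRCm38.p6) as windows of 300 bases, 250 before and 50 after the gene start. They held a median of 25 CpG dinucleotides (range 0 to 65), against 22 in the 8410 tested genes that have such a window, and Hdac9 and Kdm4c had 0. The windows shown are those of the 3 members that were higher in Fezf2GFP arrays at 48 h and of Smarca5, which was lower in Fezf2GFP arrays at 48 h than at 24 h. Capitals mark each E-box, the hexamer CANNTG that basic helix-loop-helix factors of neurogenesis are known to bind.
Chd5, chr4:152338401-152338700, plus strand: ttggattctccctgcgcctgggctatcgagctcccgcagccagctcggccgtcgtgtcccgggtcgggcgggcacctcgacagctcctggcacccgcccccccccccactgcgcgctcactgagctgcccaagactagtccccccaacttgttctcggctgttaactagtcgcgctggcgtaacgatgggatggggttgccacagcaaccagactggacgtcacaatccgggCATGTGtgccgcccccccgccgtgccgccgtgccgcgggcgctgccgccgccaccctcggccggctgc
Smarcd3, chr5:24601953-24602252, minus strand: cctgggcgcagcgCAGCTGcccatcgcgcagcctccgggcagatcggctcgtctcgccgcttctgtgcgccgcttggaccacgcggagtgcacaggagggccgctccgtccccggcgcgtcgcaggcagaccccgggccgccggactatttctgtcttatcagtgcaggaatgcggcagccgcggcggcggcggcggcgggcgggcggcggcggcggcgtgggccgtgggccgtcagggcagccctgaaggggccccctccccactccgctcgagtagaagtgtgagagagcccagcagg
Hdac6, chrX:7947840-7948139, minus strand: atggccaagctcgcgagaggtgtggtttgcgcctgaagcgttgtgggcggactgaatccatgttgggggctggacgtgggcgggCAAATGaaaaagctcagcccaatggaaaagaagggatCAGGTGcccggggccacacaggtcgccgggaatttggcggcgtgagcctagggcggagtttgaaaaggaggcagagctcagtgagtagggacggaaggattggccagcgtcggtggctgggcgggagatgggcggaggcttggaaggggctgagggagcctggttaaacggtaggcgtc
Smarca5, chr8:80739410-80739709, minus strand: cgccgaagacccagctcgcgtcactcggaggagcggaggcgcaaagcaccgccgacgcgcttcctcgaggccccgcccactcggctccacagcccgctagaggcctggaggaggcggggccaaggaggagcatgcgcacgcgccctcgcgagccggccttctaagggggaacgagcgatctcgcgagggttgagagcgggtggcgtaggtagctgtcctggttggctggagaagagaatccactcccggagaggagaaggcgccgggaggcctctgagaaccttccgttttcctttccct
An E-box lies in the windows of 40 of 66 members (60.6%), against 61.3% of the tested genes. The motif CCAAT was in 37.9% of members' windows and 39.5% of all. The right part of the REST site, GGACAGC, was in the windows of 5 members, Chd8, Ep300, Kdm4c, Smarca5 and Smarcc2 (7.58%, against 7.53% of all), and its left part, TTCAGCACC, was in 0 (0.357% of all). The E2F motif TTTCCCGC was in the windows of Kmt5c, Smarcd1 and Suz12 (4.55%, against 2.26% of all), and TTTGGCGC was in that of Ezh2 (1.52%, against 1.14%). Both strands were searched, no motif searched contains another, and a match is a description of the sequence, not a binding site. The windows of Chd5, Smarcd3 and Hdac6 have 32, 40 and 20 CpG dinucleotides.

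At 48 h, 3 of the 78 tested members passed between the vectors, Chd5, Smarcd3 and Hdac6, all higher in Fezf2GFP arrays. This is 3.85% of the members, against 3.13% of all genes tested (2.7% higher and 0.427% lower), so the share was near the background. The fold changes of the members leaned upward: 59 of 78 were above 0 (75.6%, against 57.3% of all genes), with a median of 0.19 against 0.06. Without CtrlGFP 48 h replicate 2 those medians were 0.10 and 0.03. At an unadjusted limma p under 0.05 there were 21 of 78 members, 18 of them higher and 3 lower. Of all 10295 genes 1569 had such a p (15.2%), 1267 of them higher and 302 lower, so most such genes were higher in general. The members' genes are long, with a median span of 51.7 kb against 25.3 kb for the tested genes, and across genes the fold change rose with gene span (Spearman rho 0.281, a description across genes that are not independent). With that trend removed, the members' median was 0.02 and that of all genes -0.02. The part of gene span in the members' upward lean was not tested.

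**Figure D1:**
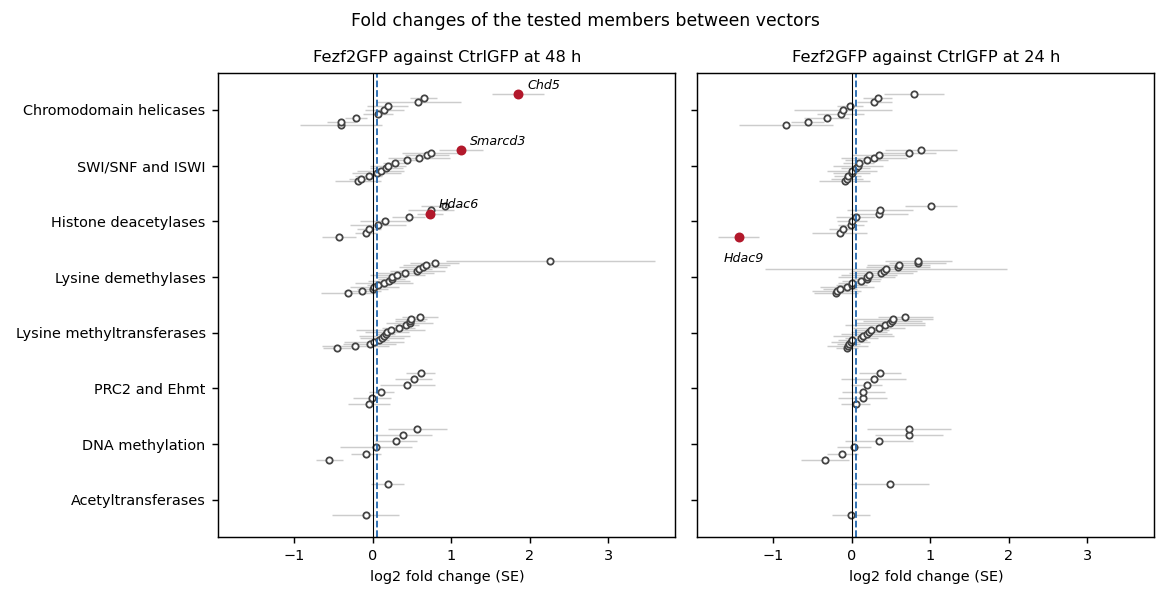
Log2 fold change of each tested member between Fezf2GFP and CtrlGFP arrays at 48 h (left) and 24 h (right), by class, with bars of 1 SE. Filled red points passed, the dashed line is the median of all 10295 genes tested, and the point far to the right in the demethylase row at 48 h is Kdm5d at 2.26 with an SE of 1.33.

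Chd5, a chromodomain helicase of neurons that belongs to NuRD-type complexes, gave the clearest difference. Its log2 levels were 8.72, 9.02, 9.63 and 9.32 in Fezf2GFP arrays at 48 h, against 7.54, 7.44, 6.98 and 7.32 in CtrlGFP arrays at 48 h. Every Fezf2GFP array lay above every CtrlGFP array, and the lowest of one group was more than 1 log2 unit above the highest of the other. The log2 fold change was 1.85 (SE 0.33), or 3.61-fold, with a limma adjusted p of 0.00876, and Chd5 passed in all 24 alternatives run, where its fold change ranged over 1.70 to 2.00. At 24 h the levels were 7.25, 5.83 and 5.42 in Fezf2GFP arrays, against 5.25, 5.66 and 5.21 in CtrlGFP arrays. There the groups overlapped, replicate 1 of Fezf2GFP stood highest, and the log2 fold change of 0.79 (SE 0.38) did not pass (limma adjusted p = 0.608).

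Smarcd3 encodes BAF60C, an accessory subunit of the SWI/SNF complex. It read 12.76, 12.97, 13.05 and 12.84 in Fezf2GFP arrays at 48 h, against 11.09, 12.78, 11.75 and 11.55 in CtrlGFP arrays at 48 h. The Fezf2GFP arrays lay close together, and replicate 2 of CtrlGFP, one of the arrays that stood apart, reached into their range. The difference of 1.12 on the log2 scale (SE 0.28) passed narrowly (limma adjusted p = 0.0475). It passed in 6 of 24 alternatives: without CtrlGFP 48 h replicate 2 the adjusted p was 0.00128, and without any other single array, of either time, it lay between 0.0509 and 0.127. At 24 h Smarcd3 averaged 11.74 ± 0.16 in Fezf2GFP arrays and 11.66 ± 0.23 in CtrlGFP arrays (SD, n = 3 each).

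Hdac6 is an X-linked deacetylase that works mainly in the cytoplasm, where tubulin is its best-known substrate. Its levels were 10.55, 10.17, 10.07 and 10.08 in Fezf2GFP arrays at 48 h, against 9.23, 9.66, 9.71 and 9.35 in CtrlGFP arrays at 48 h. All Fezf2GFP arrays lay above all CtrlGFP arrays at that time, by 1.66-fold on average (0.73 on the log2 scale, SE 0.16; limma adjusted p = 0.0273). The call was lost without Fezf2GFP 48 h replicate 1 or 2 or CtrlGFP 48 h replicate 1 or 4, each in turn, with adjusted p between 0.0592 and 0.0907 and a fold change of at least 0.62. At 24 h the means were equal, 9.85 ± 0.16 in Fezf2GFP arrays and 9.85 ± 0.15 in CtrlGFP arrays (SD, n = 3 each).

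**Figure D2:**
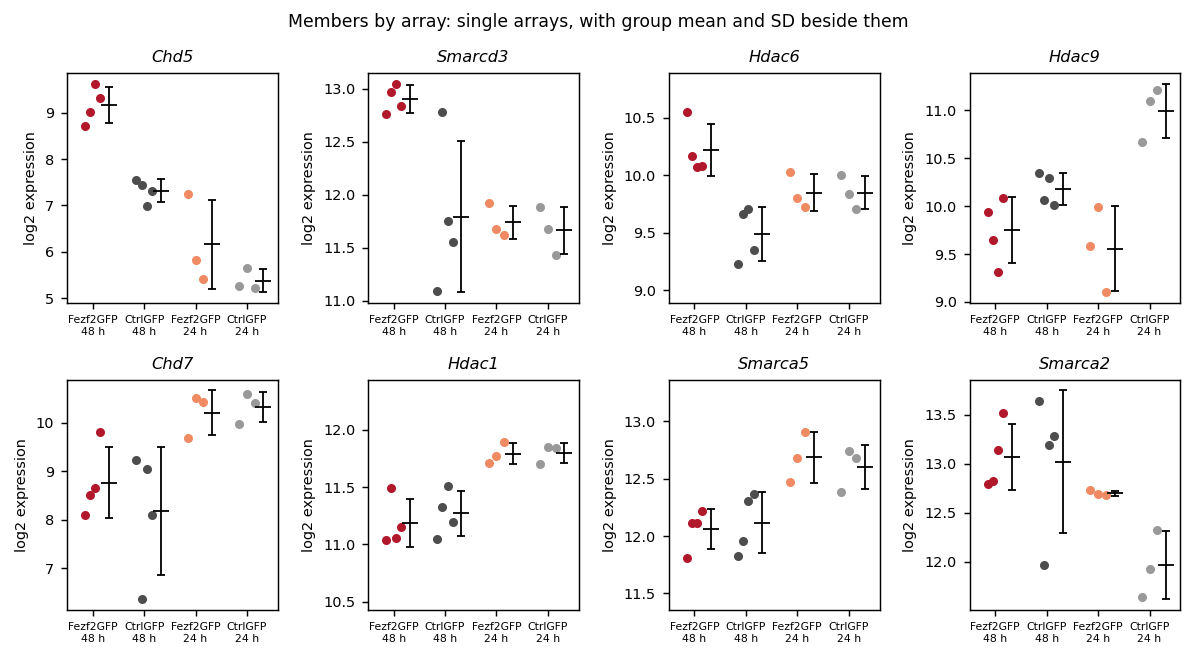
Log2 expression of the 7 members that passed in a comparison and of Smarca2, with 1 point per array for the 4 groups and, beside them, the group mean with bars of 1 SD. Chd5 in Fezf2GFP arrays at 48 h lies between 8.72 and 9.63, above all other arrays, and Hdac9 in CtrlGFP arrays at 24 h lies between 10.67 and 11.21, above all other arrays.

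Among the other chromodomain helicases, 0 passed at 48 h. Chd3, a NuRD ATPase, read 12.39, 12.17, 12.41 and 12.13 in Fezf2GFP arrays at 48 h, against 11.42, 11.81, 11.53 and 11.75 in CtrlGFP arrays at 48 h. Without any overlap between the groups, the log2 fold change of 0.65 (SE 0.17) just missed the threshold (limma adjusted p = 0.056). Chd4, the main NuRD ATPase of progenitors, varied more between arrays of a group (8.94 to 11.32 in Fezf2GFP and 9.15 to 11.41 in CtrlGFP) than between vectors (-0.40, SE 0.52). The other bright probe sets of Chd4 disagreed in sign at 48 h, with fold changes of 0.71 and -1.11. Chd9 had a negative fold change at both times, -0.40 (SE 0.18) at 48 h and -0.56 (SE 0.21) at 24 h, and passed at neither (limma adjusted p = 0.321 and 0.385). Chd8, mutated in human autism, and Chd7, mutated in human CHARGE syndrome, had fold changes of 0.19 (SE 0.26) and 0.58 (SE 0.54).

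In the SWI/SNF and ISWI class 10 of 13 members had a fold change above 0 at 48 h. The catalytic subunit Smarca4 (BRG1) read 14.17, 13.66, 13.50 and 13.52 in Fezf2GFP arrays, against 13.02, 13.50, 13.14 and 13.44 in CtrlGFP arrays. The groups touched but the CtrlGFP arrays stayed at or below the lowest Fezf2GFP array, and the log2 fold change of 0.44 (SE 0.17) did not pass (limma adjusted p = 0.234). Smarcc2 (BAF170), a core subunit, had a fold change of 0.69 (SE 0.28; limma adjusted p = 0.245), and its paralogue Smarcc1 (BAF155) one of 0.17 (SE 0.21). Smarca2 (BRM), the alternative catalytic subunit, was at 0.05 (SE 0.31).

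Of 9 tested deacetylases, Hdac6 alone passed at 48 h, and 6 had a fold change above 0. Hdac4, which shuttles between cytoplasm and nucleus, read 9.19 in its lowest Fezf2GFP array, against 8.90 in its highest CtrlGFP array. Its groups were thus apart, with a log2 fold change of 0.92 (SE 0.30) that did not pass (limma adjusted p = 0.142). Hdac4 passed (limma adjusted p = 0.0415) in the fit without CtrlGFP 24 h replicate 1. Hdac11 had a positive fold change at both times, 0.74 (SE 0.29) at 48 h and 1.01 (SE 0.33) at 24 h, and passed at neither (limma adjusted p = 0.218 and 0.253). Hdac1, Hdac2 and Hdac3, the catalytic cores of the main nuclear corepressor complexes, had fold changes of -0.09 (SE 0.14), 0.07 (SE 0.36) and -0.05 (SE 0.15).

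None of the 17 tested demethylases passed between the vectors, though 15 had a fold change above 0 at 48 h. Kdm4b, which removes a repressive methyl mark from histone H3, read 7.54, 7.88, 7.79 and 7.90 in Fezf2GFP arrays at 48 h, against 7.07, 7.34, 7.28 and 7.06 in CtrlGFP arrays at 48 h. These groups were apart as well (0.59, SE 0.17; limma adjusted p = 0.0858). Kdm6b, which erases the Polycomb mark, had a fold change of 0.68 (SE 0.30; limma adjusted p = 0.293), and its relative Kdm6a one of 0.31 (SE 0.35). The other bright probe sets of Kdm6b went the other way, at -0.36 and -0.31. The first of these had a mean of 10.12, against 10.25 for the probe set taken, so the direction depended on that choice. Kdm2a had 0.79 (SE 0.31; limma adjusted p = 0.232) and Kdm1a (LSD1), the demethylase of the CoREST complex, 0.21 (SE 0.27). The largest fold change of a member between the vectors at 48 h was that of Kdm5d, chosen here after its values were seen: a Y-linked gene that read 6.23, 7.60, 8.35 and 7.79 in Fezf2GFP arrays at 48 h, against 7.02, 2.53, 7.96 and 3.40 in CtrlGFP arrays at 48 h. It was below the dim level on 2 of the 4 CtrlGFP arrays at 48 h and on 1 array of each group at 24 h, and its fold change of 2.26 (SE 1.33) did not pass (limma adjusted p = 0.475). Uty, a Y-linked relative of Kdm6a chosen in the same way, read 5.87, 5.92, 6.91 and 7.44 in Fezf2GFP arrays at 48 h, against 6.01, 2.95, 7.11 and 5.69 in CtrlGFP arrays at 48 h, and its lowest array there, replicate 2, was also the lowest for Kdm5d.

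The methyltransferases gave 0 calls in 16 tested. Kmt2b, a writer of the activating mark on histone H3, had a fold change of 0.60 (SE 0.23; limma adjusted p = 0.216), and Kmt2a one of 0.02 (SE 0.38). Kmt5c, which methylates histone H4, read 9.05, 9.07, 9.23 and 9.01 in Fezf2GFP arrays at 48 h, against 8.22, 8.92, 8.77 and 8.73 in CtrlGFP arrays at 48 h, with no overlap (0.43, SE 0.16; limma adjusted p = 0.208). The core of Polycomb repressive complex 2 showed small differences: Ezh2, its catalytic subunit, was at 0.11 (SE 0.16), Eed at -0.05 (SE 0.27) and Suz12 at -0.01 (SE 0.24). Ezh1, the alternative catalytic subunit, more prominent in non-dividing cells, had a fold change of 0.52 (SE 0.24; limma adjusted p = 0.311). Ehmt2 (G9a), which writes a repressive mark, read 11.71, 11.67, 11.24 and 11.87 in Fezf2GFP arrays at 48 h, against 10.87, 10.94, 11.03 and 11.21 in CtrlGFP arrays at 48 h. Ehmt2 values of the groups were apart (0.61, SE 0.18; limma adjusted p = 0.0887), and its partner Ehmt1 had 0.44 (SE 0.35).

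Of the DNA methylation enzymes 0 of 6 passed at 48 h. Dnmt3b, a de novo methyltransferase, was the member with the most negative fold change, and read 8.55, 8.09, 8.54 and 7.92 in Fezf2GFP arrays at 48 h, against 9.12, 8.76, 8.72 and 8.70 in CtrlGFP arrays at 48 h. No CtrlGFP array was as low as a Fezf2GFP array (-0.55, SE 0.17; limma adjusted p = 0.121). The other probe set of Dnmt3b, above the dim level on all 14 arrays, had a fold change of 0 at 48 h. Its mean was 5.4, against 8.67 for the probe set taken, so the difference rested on that choice. Dnmt3a, the other de novo enzyme, had 0.57 (SE 0.38), the maintenance enzyme Dnmt1 -0.08 (SE 0.19), and Tet1, Tet2 and Tet3, which oxidise methylcytosine, 0.38 (SE 0.38), 0.04 (SE 0.46) and 0.30 (SE 0.27). The acetyltransferases Crebbp and Ep300 had -0.09 (SE 0.43) and 0.19 (SE 0.21). In total 8 of the 78 members had groups that did not overlap at 48 h (10.3%, against 9.07% of all genes, or 7.35% higher and 1.72% lower): Chd5, Hdac6, Chd3, Hdac4, Kdm4b, Kmt5c and Ehmt2 higher and Dnmt3b lower in Fezf2GFP arrays. Beside these differences, 4 of 16 radial glia markers passed at 48 h (3 higher and 1 lower in Fezf2GFP arrays), with a summed linear level of 82085 to 117586 in Fezf2GFP arrays and 73030 to 90547 in CtrlGFP arrays, and 0 of 17 dividing-cell markers passed. Both tested Cajal-Retzius cell markers had a fold change above 0 (2.48 and 4.64), and 1 of the 2 passed. The summed level of the 6 on that list was 1755 to 3404 in Fezf2GFP arrays and 134 to 927 in CtrlGFP arrays. On every CtrlGFP array at 48 h, 5 of the 6 were below the dim level, so at least 1 tested marker gives only a bound. Of 13 intermediate progenitor markers 1 passed and was lower, and 11 had a fold change below 0 (median -0.27), with a summed level of 66123 to 75642 in Fezf2GFP arrays and 67103 to 80794 in CtrlGFP arrays. Of 4 tested oligodendrocyte markers 1 passed and was higher, but 2 had a fold change above 0 and 2 below (median -0.4). At an unadjusted limma p under 0.05, 1 of them was higher and 2 were lower. The summed level of the 7 oligodendrocyte markers with a probe set was 977 to 1562 in Fezf2GFP arrays and 905 to 1671 in CtrlGFP arrays. The part of cell composition in the members' differences was not tested.

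**Figure D3:**
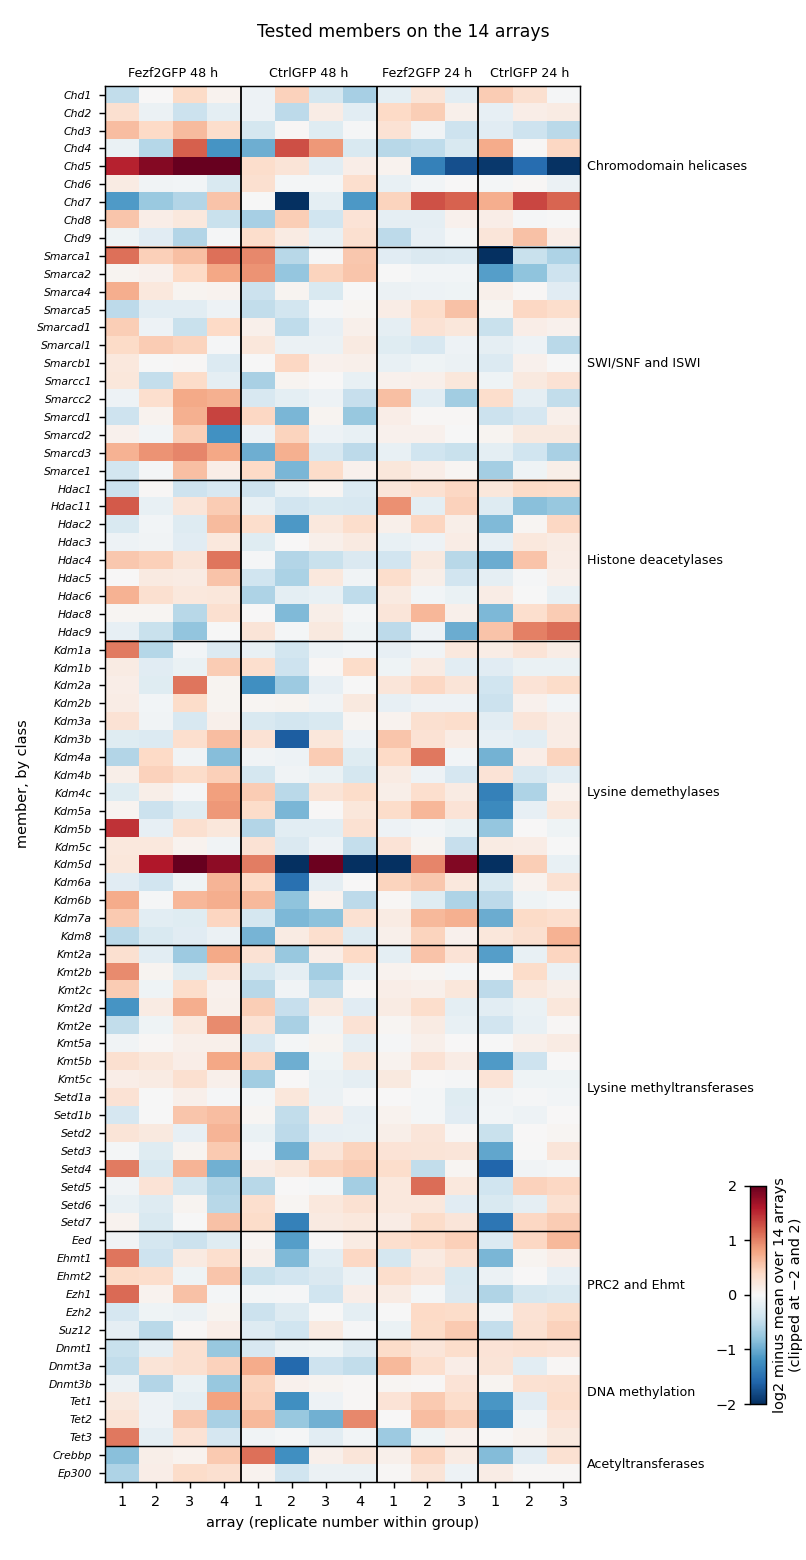
Log2 level of the 78 tested members on the 14 arrays, each minus its own mean over all arrays, clipped at -2 and 2, with 1 row per member by class and 1 column per array by group. Chd5 is red in the Fezf2GFP arrays at 48 h and blue in the CtrlGFP arrays at 24 h, and replicate 2 of CtrlGFP at 48 h and replicate 1 of CtrlGFP at 24 h, the arrays that stood apart, are blue in many rows of several classes.

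At 24 h only Hdac9 passed between the vectors, and it was lower in Fezf2GFP arrays (1 of 78 members, 1.28%, against 1.06% of all genes, or 0.806% higher and 0.253% lower). Hdac9, a class IIa deacetylase known to bind MEF2 factors, read 9.58, 9.99 and 9.10 in Fezf2GFP arrays at 24 h, against 10.67, 11.10 and 11.21 in CtrlGFP arrays at 24 h. Each Fezf2GFP array lay below each CtrlGFP array, and the difference of -1.44 on the log2 scale (SE 0.26) passed (limma adjusted p = 0.0143). The call was lost without Fezf2GFP 24 h replicate 1 or 3 or CtrlGFP 24 h replicate 2 or 3, each in turn, at adjusted p between 0.0678 and 0.0746. At 48 h Hdac9 read 9.94, 9.65, 9.31 and 10.09 in Fezf2GFP arrays, against 10.35, 10.06, 10.29 and 10.01 in CtrlGFP arrays. The groups overlapped there, and the fold change of -0.43 (SE 0.22) did not pass (limma adjusted p = 0.398).

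Over all 78 members at 24 h the median fold change was 0.14, against 0.06 for all genes, and 52 lay above 0 (66.7%, against 56.4% of all genes). With the trend over gene span removed the medians were 0.04 and 0.01, and the part of gene span was not tested here either. At an unadjusted limma p under 0.05 there were 4 members, Hdac11 and Kdm4c higher and Chd9 and Hdac9 lower, where 8.85% of all genes had such a p. Kdm4c, a relative of Kdm4b, had a fold change of 0.84 (SE 0.36; limma adjusted p = 0.508). The groups did not overlap for 12 members (15.4%, against 19.6% of all genes), 9 higher (12.6% of all genes) and 3 lower (7% of all genes) in Fezf2GFP arrays. Some of those on the higher side had their lowest value in replicate 1 of CtrlGFP, as for Smarca1, an ISWI ATPase: it read 9.44, 9.37 and 9.39 in Fezf2GFP arrays at 24 h, against 7.28, 9.22 and 9.05 in CtrlGFP arrays at 24 h. Without that array the members' median at 24 h was 0 and that of all genes 0.02. At 24 h none of the 16 radial glia, 13 intermediate progenitor, 13 post-mitotic neuron, 17 dividing-cell or 9 GABAergic markers tested passed. Fold changes above 0 were found for 11, 4, 11, 4 and 9 of them, in that order. The summed intermediate progenitor level was 82674 to 99442 in Fezf2GFP and 100807 to 115396 in CtrlGFP arrays. That of the post-mitotic neuron markers was 89397 to 91985 and 68269 to 88142. Their part in the members' differences was not tested.

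The vector effects at 48 h and 24 h were compared with each other in the same fit. None of the 78 members passed (0.0971% of all genes did, 0.068% higher and 0.0291% lower), and 5 had an unadjusted limma p under 0.05 (4.94% of all genes had one): Hdac9 at 1.01 (SE 0.34), Hdac6 at 0.73 (SE 0.25), Smarcd3 at 1.04 (SE 0.42), Hdac4 at 1.07 (SE 0.46) and Kdm4b at 0.59 (SE 0.26), all more positive at 48 h. Their adjusted p lay at 0.805 or above. Among all genes with an unadjusted limma p under 0.05, 337 were more positive at 48 h and 172 more negative. With array weights 2 passed, Hdac6 (limma adjusted p = 0.0465) and Smarcd3 (0.0154). For Chd5 the difference was 1.06 (SE 0.51; limma adjusted p = 0.998). By this test no member's vector effect was shown to differ between the times.

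Between 48 h and 24 h, 4 members passed in Fezf2GFP arrays and 4 in CtrlGFP arrays, which is 5.13% of the members in each case, against 12.1% of all genes in Fezf2GFP arrays (6.38% higher and 5.67% lower) and 12.6% in CtrlGFP arrays (5.88% higher and 6.69% lower). In Fezf2GFP arrays Chd5 and Smarcd3 rose and Hdac1 and Smarca5 fell, and in CtrlGFP arrays Chd5 rose and Hdac1, Hdac9 and Chd7 fell. Arrays of the 2 times did not overlap for 15 members in Fezf2GFP arrays (19.2%, against 26.2% of all genes), 10 higher (13.3% of all genes) and 5 lower (12.9%), and for 10 in CtrlGFP arrays (12.8%, against 22.7% of all genes), 2 higher (9.93%) and 8 lower (12.8%). An unadjusted limma p under 0.05 was found for 15 members in Fezf2GFP arrays (24.4% of all genes) and 11 in CtrlGFP arrays (24.1% of all genes). The comparisons between times use the same arrays as those between vectors, so a gene's values recur in both. The members' median fold change was 0.03 in Fezf2GFP arrays and -0.11 in CtrlGFP arrays, where all genes had -0.01 and -0.02, and 41 and 32 members lay above 0 (48.8% and 47.7% of all genes did).

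**Figure D4:**
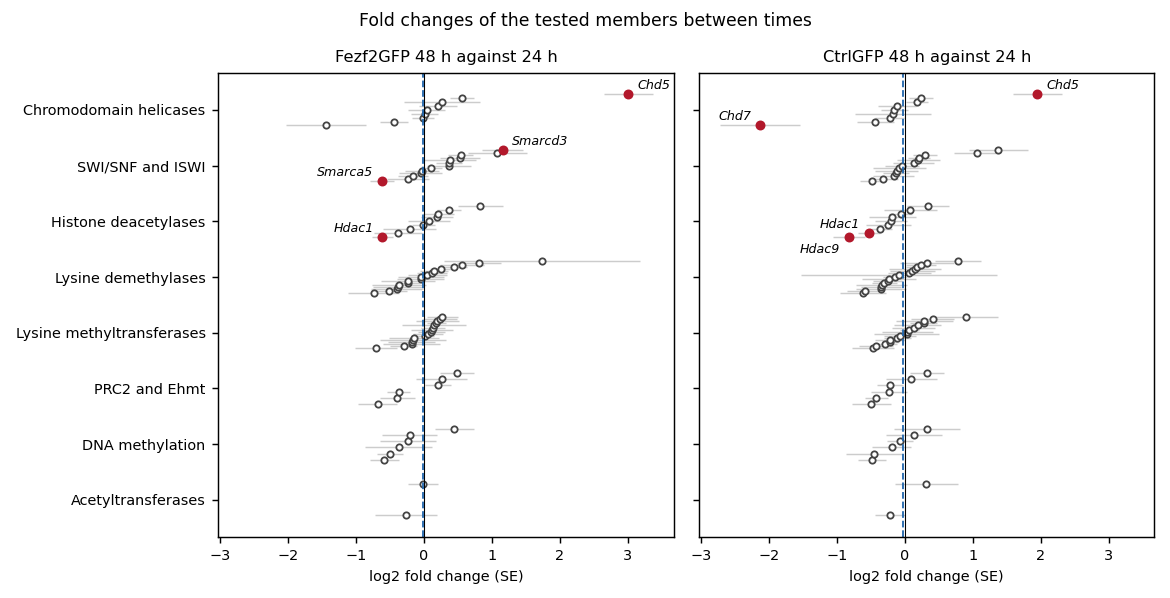
Log2 fold change of each tested member between 48 h and 24 h in Fezf2GFP arrays (left) and CtrlGFP arrays (right), by class, with bars of 1 SE. Filled red points passed, the dashed line is the median of all 10295 genes tested, and most members lie within 1 log2 unit of 0.

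Chd5 rose with both vectors. Set against the 24 h arrays listed above, its log2 fold change was 3.01 (SE 0.36), or 8.05-fold, in Fezf2GFP arrays (limma adjusted p = 0.000303) and 1.95 (SE 0.36), or 3.86-fold, in CtrlGFP arrays (limma adjusted p = 0.00325). No array at 48 h overlapped an array at 24 h of the same vector, and both calls held in all 24 alternatives. Smarcd3 rose in Fezf2GFP arrays, where it read 12.76 to 13.05 at 48 h against 11.62 to 11.92 at 24 h (1.16, SE 0.30; limma adjusted p = 0.0225). In CtrlGFP arrays its fold change was 0.13 (SE 0.30). The Smarcd3 rise was lost without Fezf2GFP 48 h replicate 2 or 3 or Fezf2GFP 24 h replicate 2 or 3, each in turn (adjusted p between 0.0531 and 0.0952).

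Hdac1, the class I deacetylase of the NuRD, Sin3 and CoREST complexes, was lower at 48 h with both vectors. It read 11.04, 11.49, 11.06 and 11.15 in Fezf2GFP arrays at 48 h, against 11.71, 11.77 and 11.89 in Fezf2GFP arrays at 24 h (-0.61, SE 0.16; limma adjusted p = 0.023). In CtrlGFP arrays it read 11.05, 11.33, 11.51 and 11.20 at 48 h, against 11.70, 11.85 and 11.84 at 24 h (-0.52, SE 0.16; limma adjusted p = 0.0442). Neither pair of groups overlapped, and the spread within groups was small at 24 h. Leaving out 1 array ended the Fezf2GFP call for Fezf2GFP 24 h replicates 2 and 3 and Fezf2GFP 48 h replicates 1 and 3 (adjusted p up to 0.108). It ended the CtrlGFP call for 11 of the 14 arrays (adjusted p up to 0.135), with a fold change of -0.60 to -0.45, the 3 exceptions being CtrlGFP 48 h replicate 3 and Fezf2GFP 48 h replicates 1 and 2. Its close relative Hdac2 had fold changes of -0.21 (SE 0.39) and 0.08 (SE 0.39).

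Smarca5 (SNF2H), an ISWI ATPase that spaces nucleosomes evenly, read 11.81, 12.11, 12.11 and 12.22 in Fezf2GFP arrays at 48 h, against 12.47, 12.68 and 12.91 in Fezf2GFP arrays at 24 h. All 48 h arrays were below all 24 h arrays (-0.62, SE 0.18; limma adjusted p = 0.0424), and both other bright probe sets of the gene gave negative fold changes, -0.82 and -0.50. With the mean of all probe sets of a gene the call was lost (-0.49; limma adjusted p = 0.279). In CtrlGFP arrays it read 11.83, 11.96, 12.31 and 12.37 at 48 h, against 12.38, 12.74 and 12.68 at 24 h (-0.48, SE 0.18; limma adjusted p = 0.112). The Fezf2GFP call was lost for 8 of 14 single arrays left out (adjusted p up to 0.196): Fezf2GFP 48 h replicates 1, 2 and 3, Fezf2GFP 24 h replicates 2 and 3, CtrlGFP 48 h replicate 3 and CtrlGFP 24 h replicates 2 and 3.

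Chd7 fell in CtrlGFP arrays. It read 9.23, 6.37, 9.05 and 8.09 in CtrlGFP arrays at 48 h, against 9.97, 10.58 and 10.40 in CtrlGFP arrays at 24 h, and replicate 2 at 48 h was far below the rest. The difference was -2.13 on the log2 scale (SE 0.59; limma adjusted p = 0.0306), -1.53 at its smallest when 1 array was left out, and -1.31 by the other bright probe set. The call was lost without CtrlGFP 24 h replicate 1, 2 or 3 or CtrlGFP 48 h replicate 4, each in turn, at adjusted p between 0.0561 and 0.101. In Fezf2GFP arrays Chd7 read 8.10, 8.50, 8.65 and 9.81 at 48 h, against 9.68, 10.51 and 10.42 at 24 h. The groups overlapped in 1 array, and the fold change of -1.44 (SE 0.59) did not pass (limma adjusted p = 0.145). Hdac9 fell in CtrlGFP arrays (-0.82, SE 0.24; limma adjusted p = 0.0413), with the call lost for 8 of 14 single arrays (adjusted p up to 0.143): CtrlGFP 48 h replicates 1 to 4, CtrlGFP 24 h replicates 2 and 3, Fezf2GFP 48 h replicate 2 and Fezf2GFP 24 h replicate 1. Its fold change in Fezf2GFP arrays was 0.19 (SE 0.24).

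Several members came near the threshold between times. Smarca2 (BRM) in CtrlGFP arrays read 13.64, 11.97, 13.19 and 13.29 at 48 h, against 11.64, 11.93 and 12.33 at 24 h. Replicate 2 at 48 h lay within the 24 h range, and the log2 fold change of 1.06 (SE 0.33) had a limma adjusted p of 0.0547, which was 0.00181 at a fold change of 1.41 without that array. Smarca1 had 1.38 (SE 0.43; limma adjusted p = 0.0561) in CtrlGFP arrays and 1.08 (SE 0.43; limma adjusted p = 0.14) in Fezf2GFP arrays. It passed in CtrlGFP arrays without CtrlGFP 48 h replicate 2 (limma adjusted p = 0.0249) or without CtrlGFP 24 h replicate 2 (0.0384). On the negative side Dnmt1, which copies DNA methylation after replication, had -0.58 (SE 0.21; limma adjusted p = 0.0881) in Fezf2GFP arrays and -0.48 (SE 0.21; limma adjusted p = 0.167) in CtrlGFP arrays, and passed in Fezf2GFP arrays without Fezf2GFP 48 h replicate 3 (0.0123). Ezh2 had -0.37 (SE 0.17; limma adjusted p = 0.209) and -0.42 (SE 0.17; limma adjusted p = 0.14), and Eed -0.68 (SE 0.29; limma adjusted p = 0.158) and -0.49 (SE 0.29; limma adjusted p = 0.347). The 17 tested demethylases and 16 Kmt and Setd methyltransferases gave 0 calls between times by limma, and 2 demethylases in each vector had an unadjusted p under 0.05, as did 1 methyltransferase in Fezf2GFP arrays and 0 in CtrlGFP arrays. Of all genes 24.4% had such a p in Fezf2GFP arrays and 24.1% in CtrlGFP arrays.

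Markers of dividing cells were lower at 48 h with both vectors. Of 17 measured, 12 passed as lower in Fezf2GFP arrays (70.6%, against 12.1% of all genes passed) and 15 in CtrlGFP arrays (88.2%, against 12.6%). All 17 had a fold change below 0 with both vectors, with medians of -1.39 and -1.57. Their summed linear level was 52091 to 68233 in Fezf2GFP and 59086 to 85406 in CtrlGFP arrays at 48 h, against 108588 to 144162 in Fezf2GFP and 133001 to 144712 in CtrlGFP arrays at 24 h. Markers of post-mitotic neurons were higher: of 13 tested, 5 passed as higher in Fezf2GFP arrays (38.5%) and 6 in CtrlGFP arrays (46.2%). A fold change above 0 was found for 13 of them in Fezf2GFP arrays and 12 in CtrlGFP arrays. The summed level of 14 measured was 115462 to 138932 and 101261 to 125679 at 48 h, against 89397 to 91985 and 68269 to 88142 at 24 h. Of 13 intermediate progenitor markers 6 passed as lower in Fezf2GFP arrays (46.2%) and 7 in CtrlGFP arrays (53.8%). With each vector 12 of the 13 had a fold change below 0, with medians of -1.05 and -0.92. Their summed level was 66123 to 75642 in Fezf2GFP and 67103 to 80794 in CtrlGFP arrays at 48 h, against 82674 to 99442 in Fezf2GFP and 100807 to 115396 in CtrlGFP arrays at 24 h. Of 16 radial glia markers 2 passed as lower in Fezf2GFP arrays (12.5%) and 6 in CtrlGFP arrays (37.5%). A fold change below 0 was found for 15 and 14 of the 16, with medians of -0.52 and -0.83. Their summed level was 82085 to 117586 in Fezf2GFP and 73030 to 90547 in CtrlGFP arrays at 48 h, against 115644 to 128687 in Fezf2GFP and 117580 to 122541 in CtrlGFP arrays at 24 h. These lists moved beside the members' changes between times, and their part in those changes was not tested.

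Genes that work with these enzymes were taken as a list of 120 symbols, of which 109 had a probe set and 104 were tested. Between 48 h and 24 h, 11 partners passed in Fezf2GFP arrays (10.6%, against 12.1% of all genes) and 9 in CtrlGFP arrays (8.65%, against 12.6%). Between the vectors 2 passed at 48 h and 0 at 24 h (1.92%, against 3.13% of all genes, and 0%, against 1.06%). At 24 h 5 of the 104 had an unadjusted limma p under 0.05, where 8.85% of all genes had one. The 2 at 48 h were Nsd1 and Tle2. Nsd1, a methyltransferase mutated in human Sotos syndrome, read 12.06, 12.04, 12.24 and 12.31 in Fezf2GFP arrays at 48 h, against 11.53, 11.51, 11.76 and 11.58 in CtrlGFP arrays at 48 h. No Fezf2GFP array was as low as a CtrlGFP array (0.57, SE 0.14; limma adjusted p = 0.0434), and the call was lost for 12 of 14 single arrays left out, all but CtrlGFP 24 h replicate 1 and Fezf2GFP 24 h replicate 3 (adjusted p up to 0.118). It held in 6 of 24 alternatives: with the mean of all probe sets of a gene the fold change of Nsd1 was 0.04 (limma adjusted p = 0.954), and with the trend on gene span removed it was 0.37 (limma adjusted p = 0.174). Tle2, a Groucho corepressor, was above the dim level on 3 of 4 Fezf2GFP arrays at 48 h and on 0 arrays of the other groups. It was therefore tested only through the group where it is high. The values give only a bound, at least 1.34-fold higher than in CtrlGFP arrays at 48 h, and the call (limma adjusted p = 0.0268) follows that selection. That call was lost without CtrlGFP 48 h replicate 2 or 3 or Fezf2GFP 48 h replicate 1, 3 or 4, each in turn (adjusted p between 0.0658 and 0.0743). Tle2 is also counted among the partners that passed between times with each vector, and in CtrlGFP arrays it was below the dim level at both times.

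Some of the other subunits of the SWI/SNF complex are known to be exchanged as neurons form, and the list also holds subunits that are not. Of 18 tested, 4 passed between times in Fezf2GFP arrays (22.2%, against 12.1% of all genes) and 1 in CtrlGFP arrays (5.56%, against 12.6%). None passed between the vectors at 48 h or 24 h (0%, against 3.13% and 1.06% of all genes in limma). An unadjusted limma p under 0.05 was found for 3 of the 18 at 48 h (15.2% of all genes) and 2 at 24 h (8.85% of all genes). Of the 4, Actl6b and Bcl7c rose and Actl6a and Ss18 fell. Bcl7c, an accessory subunit chosen here after its values were seen, read 10.80, 10.33, 10.33 and 9.92 in Fezf2GFP arrays at 48 h, against 9.52, 9.71 and 9.61 in Fezf2GFP arrays at 24 h (0.73, SE 0.20; limma adjusted p = 0.0332). That call was lost without Fezf2GFP 48 h replicate 1, 2 or 3 or Fezf2GFP 24 h replicate 1, 2 or 3, each in turn (adjusted p up to 0.108). Actl6b (BAF53b), the neuronal actin-related subunit, read 9.19, 9.46, 9.57 and 9.82 in Fezf2GFP arrays at 48 h, against 7.96, 7.15 and 7.13 in Fezf2GFP arrays at 24 h (2.10, SE 0.29; limma adjusted p = 0.000804). In CtrlGFP arrays it read 8.86, 10.19, 9.33 and 9.60 at 48 h, against 6.18, 6.50 and 6.11 at 24 h (3.24, SE 0.29; limma adjusted p = 4.98e-05). The times were far apart with both vectors, and both calls held in all 24 alternatives. The difference between these rises, -1.14 (SE 0.42), did not pass (limma adjusted p = 0.848).

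The progenitor counterparts were examined next, chosen after their values were seen. Actl6a (BAF53a) read 12.95, 12.75, 12.70 and 12.63 in Fezf2GFP arrays at 48 h, against 13.19, 13.38 and 13.44 in Fezf2GFP arrays at 24 h (-0.58, SE 0.16; limma adjusted p = 0.0285). In CtrlGFP arrays its fold change was -0.15 (SE 0.16; limma adjusted p = 0.653). Ss18, the progenitor subunit, fell in Fezf2GFP arrays (-1.20, SE 0.34; limma adjusted p = 0.0359): it read 10.85, 11.11, 10.85 and 11.47 at 48 h, against 12.34, 12.36 and 12.11 at 24 h. In CtrlGFP arrays Ss18 read 11.14, 10.05, 11.56 and 11.55 at 48 h, against 11.40, 12.10 and 12.33 at 24 h, and the groups overlapped. Ss18l1 (CREST), its neuronal counterpart, read 12.11, 11.86, 11.88 and 12.42 in Fezf2GFP arrays at 48 h, against 11.40, 11.45 and 11.23 at 24 h, with no overlap. Its fold change was 0.70 (SE 0.25; limma adjusted p = 0.0926) in Fezf2GFP arrays and 0.80 (SE 0.25; limma adjusted p = 0.0536) in CtrlGFP arrays, and it passed in neither. Phf10 (BAF45a), the progenitor PHD-finger subunit, had a fold change of 0.04 (SE 0.20) in Fezf2GFP arrays and 0.14 (SE 0.20) in CtrlGFP arrays. The neuronal Dpf1 (BAF45b) had 1.23 (SE 0.48; limma adjusted p = 0.124) and 1.04 (SE 0.48; limma adjusted p = 0.202), and Dpf3 was below the dim level on all 14 arrays. Each Actl6a and Ss18 call was lost when some single arrays were left out: for Actl6a, Fezf2GFP 48 h replicates 2, 3 and 4 and Fezf2GFP 24 h replicates 2 and 3 (adjusted p up to 0.127), and for Ss18, Fezf2GFP 48 h replicates 1, 2 and 3 and Fezf2GFP 24 h replicates 1, 2 and 3 (adjusted p up to 0.123).

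**Figure D5:**
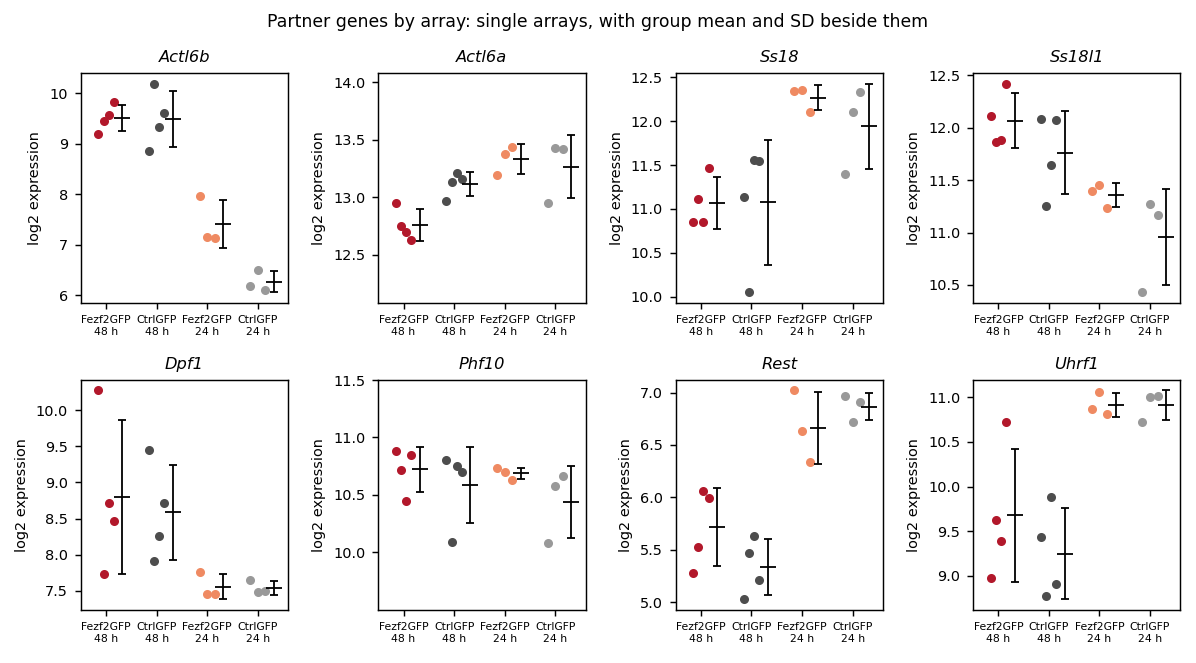
Log2 expression of 8 partner genes of the enzymes, with 1 point per array for the 4 groups and, beside them, the group mean with bars of 1 SD. Actl6b lies between 8.86 and 10.19 on all 48 h arrays and between 6.11 and 7.96 on all 24 h arrays, and Rest lies between 5.03 and 6.06 at 48 h and between 6.34 and 7.02 at 24 h.

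Rest, the repressor that keeps neuronal genes off outside neurons and recruits the CoREST and Sin3 deacetylase complexes, fell with both vectors. It read 5.28, 5.53, 6.06 and 5.99 in Fezf2GFP arrays at 48 h, against 7.02, 6.63 and 6.34 in Fezf2GFP arrays at 24 h (-0.95, SE 0.23; limma adjusted p = 0.0165). In CtrlGFP arrays it read 5.03, 5.47, 5.63 and 5.21 at 48 h, against 6.97, 6.72 and 6.91 at 24 h (-1.53, SE 0.23; limma adjusted p = 0.000954). All 48 h arrays lay below all 24 h arrays. The Fezf2GFP call was lost without Fezf2GFP 24 h replicate 1 or 2 (adjusted p 0.0592 to 0.0777).

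Of 19 tested Polycomb partners 2 passed as lower and 1 as higher in Fezf2GFP arrays at 48 h against 24 h, and 3 as lower in CtrlGFP arrays (15.8% each). Of 14 tested methyl-DNA readers and ISWI partners 2 passed as lower with each vector (14.3% each). The shares of all genes that passed were 12.1% in Fezf2GFP arrays and 12.6% in CtrlGFP arrays. The Polycomb partner counted as higher was Ring1, an E3 ubiquitin ligase of Polycomb repressive complex 1, chosen here after its values were seen. It was above the dim level on 3 of 4 Fezf2GFP arrays at 48 h and on 0 of 3 Fezf2GFP arrays at 24 h. Outside that group only CtrlGFP 48 h replicate 2 exceeded the level, at 4.16, so Ring1 was tested only through the group where it is high. Its call (limma adjusted p = 0.0387) follows that selection and was lost for 7 of 14 single arrays left out (adjusted p up to 0.199). Uhrf1, which brings Dnmt1 to replicated DNA, read 9.44, 8.77, 9.88 and 8.91 in CtrlGFP arrays at 48 h, against 10.72, 11.00 and 11.01 in CtrlGFP arrays at 24 h (-1.66, SE 0.35; limma adjusted p = 0.00757). In Fezf2GFP arrays it had -1.24 (SE 0.35; limma adjusted p = 0.0382), a call that held in 12 of 24 alternatives. Hells, a remodeller needed for DNA methylation of repeats, had -1.78 (SE 0.35; limma adjusted p = 0.00576) in Fezf2GFP arrays and -1.50 (SE 0.35; limma adjusted p = 0.0139) in CtrlGFP arrays, where the call was lost without CtrlGFP 24 h replicate 2 or 3 (adjusted p up to 0.0529). Cbx2, a Polycomb reader of the mark that Ezh2 writes, had -0.76 (SE 0.23; limma adjusted p = 0.0474) in Fezf2GFP arrays, a call that held in 7 of 24 alternatives, and -1.03 (SE 0.23; limma adjusted p = 0.00907) in CtrlGFP arrays. Pcgf5, a subunit of Polycomb repressive complex 1, read 7.68, 8.24, 8.04 and 7.96 in Fezf2GFP arrays at 48 h, against 9.41, 9.55 and 10.01 in Fezf2GFP arrays at 24 h (-1.67, SE 0.41; limma adjusted p = 0.0184), a call lost without Fezf2GFP 24 h replicate 2 or 3 (adjusted p up to 0.0949). In CtrlGFP arrays it had -1.73 (SE 0.41; limma adjusted p = 0.0147), a call lost without CtrlGFP 24 h replicate 3 (adjusted p = 0.0681). Prdm8, a PR-domain repressor of cortical neurons, rose in CtrlGFP arrays (1.04, SE 0.22; limma adjusted p = 0.00685), where it read 12.84, 12.35, 12.71 and 12.88 at 48 h against 11.06, 11.92 and 11.99 at 24 h. In Fezf2GFP arrays its fold change of 0.18 (SE 0.22) did not pass (limma adjusted p = 0.692).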

How the data were processed

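Log2 expression values of 45037 Affymetrix probe sets on 14 arrays were used as deposited; the submitters' processing notes name GCRMA and the sources used here give neither its version nor its settings. Background correction, normalization and probe summary are thus the authors' own, and depth is not defined for arrays: their number limits the precision, and signal over background limits dim genes. For each of 18193 symbols with a probe set of 1 symbol, the probe set with the highest mean was kept, and a gene was tested if it exceeded 4 (log2) on at least 3 of 14 arrays (10295 genes). limma 3.58.1 in R 4.3.3 fitted 1 mean per group, with Benjamini-Hochberg adjustment over all genes tested. It gave 5 comparisons: the vector effect (Fezf2GFP minus CtrlGFP) at each time, the change of that effect between times, and 48 h minus 24 h with each vector. The members, the partner and marker lists and the tests were chosen with earlier results of these data known. Members named are those that passed in a comparison, up to 2 per class with the smallest p in each vector comparison, and a list of well-known enzymes; partners named are up to 5 per comparison that passed, and other names are said to be chosen after their values were seen. Gene spans and start regions come from RefSeq (GRCm38.p6). Alternatives were other dim levels, normalizations, array weights, a replicate block, the groups compared alone, other probe set rules, removal of the gene span trend, and leaving out arrays. In simulated data with 200 of 10295 genes changed, the 48 h vector comparison recovered 90% of genes changed by 2 on the log2 scale and 53% of those changed by 1 (82% and 44% at 24 h). False calls were 6 of 149 at 48 h and 9 of 135 at 24 h. The simulated noise was independent between genes and arrays, with the same spread on every array. Some real arrays stood apart, so these rates may not hold for them.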

Additional observations from a re-analysis of the deposited data

Results flagged for a closer look

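In 4 of the 92 groups of 4 arrays examined, the highest or lowest array lay further from its neighbour than Dixon's 95% critical value allows, as a share of the group's range, and chance alone gives about 1 in 20 groups. Kdm6b read 10.23 in Fezf2GFP replicate 2 at 48 h, against 10.92 to 10.99 in the other Fezf2GFP arrays at 48 h. Hdac2 read 13.05 in CtrlGFP replicate 2 at 48 h, where the other CtrlGFP arrays at 48 h had 14.41 to 14.55. Eed read 10.56 in that same array, with the others at 11.66 to 11.82. Dnmt3b read 9.12 in CtrlGFP replicate 1 at 48 h, with the others at 8.70 to 8.76. CtrlGFP replicate 2 at 48 h is one of the arrays that stood apart, and its part in the low Hdac2 and Eed values was not tested.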

How the results depend on the processing

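The 12 calls of single members kept their sign under every alternative run, and Chd5 kept all 3 of its calls, whereas the counts of members passed moved more. At 48 h between the vectors (3 members), 1 passed after quantile normalization, 1 with only the groups compared, 5 after median centring, 6 with array weights, and 5 without both CtrlGFP 24 h replicate 1 and CtrlGFP 48 h replicate 2; leaving out 1 array gave 1 to 4. At 24 h (1 member) the counts were 0 with only the groups compared, 9 with array weights and 1 without both of those arrays, and 0 to 1 when 1 array was left out. For the difference of the vector effects (0 members) array weights gave 2, and 0 passed when any 1 array was left out. Between times in Fezf2GFP arrays (4 members), array weights gave 19, leaving out both arrays 9, and leaving out 1 array 1 to 6. In CtrlGFP arrays (4 members), 2 passed with no filter on dim probe sets, 2 after median centring, 2 with only the groups compared, 22 with array weights and 4 without both arrays, and 1 to 4 when 1 array was left out. Array weights ran between 0.202 for CtrlGFP 48 h replicate 2 and 8.56 for CtrlGFP 24 h replicate 2, and their estimation did not fully converge. They called 550 genes at 48 h, 2030 at 24 h, 240 for the difference, 3133 in Fezf2GFP arrays and 3077 in CtrlGFP arrays, against 322, 109, 10, 1241 and 1294 without weights. The cause of these shifts was not tested.

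Replicate numbers were taken not to pair the arrays, since not every correlation between the deviations of same-numbered arrays exceeded 0.1. Between the vectors at 1 time these correlations ran from -0.0558 to 0.318, and between times with 1 vector from -0.399 to 0.193. With the number as a replicate block 1 member passed at 48 h and 0 at 24 h between the vectors, 0 for the difference of the effects, 4 between times in Fezf2GFP arrays and 3 in CtrlGFP arrays. Between the vectors that block ended the calls of Hdac6 (limma adjusted p = 0.0657) and Smarcd3 (0.0829) at 48 h and of Hdac9 (0.0505) at 24 h. Of 218 further pairs of a named member and a comparison that did not pass, 99 changed sign in some alternative and 40 passed in some alternative, so uncalled differences carry no firm direction.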
